A study of Mus musculus with 6 samples.

Results

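The genes described here are the ubiquitin-conjugating enzymes, ubiquitin ligases, cullins, F-box proteins and ubiquitin-specific proteases of mouse embryonic fibroblasts, compared between CypD knockout and wild-type cells. They were chosen by name, from symbols that begin with Ube2 or Ube3, or with Rnf, Trim, Fbxo, Fbxw, Fbxl, Usp or Cul and a digit, and Usp9x and Usp9y were left out by the same rule. The rule found 160 genes among the 7606 with a named probe, carried by 235 of the 45281 probes on each array. Only probes that the authors had selected, by variation and signal as described below, carry names here. Genes without a selected probe could not be found by the rule, so the 160 are not every such gene on the array. All 160 were tested, each by its brightest named probe.

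Total RNA was hybridised to 6 Illumina bead arrays, 3 labelled CypD knockout and 3 labelled wild type. CypD, cyclophilin D, is a mitochondrial peptidyl-prolyl isomerase encoded by Ppif. All of the fibroblasts were grown from C57BL/6 embryos at E13.5 in serum-containing medium, and 250 ng of RNA was labelled for each array. The labels give a letter, A, B or C, to each array, without saying whether a letter stands for an embryo, a litter or a culture of its own, and p-values therefore cover only the array-to-array spread seen here, which could be technical.

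Ubiquitin is a small protein that is attached to other proteins in a relay. An activating enzyme (E1) passes it to a conjugating enzyme (E2), and a ligase (E3) brings the loaded E2 to the substrate. RING and TRIM ligases hold the E2 next to the substrate, HECT and RING-between-RING ligases take the ubiquitin onto themselves first, and cullins act as scaffolds that carry exchangeable substrate receptors such as F-box proteins. Ubiquitin-specific proteases remove the tag. In fibroblasts the system sets the lifetimes of cyclins, signalling receptors and transcription factors, and marks proteins for the proteasome.

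Ppif itself was read first as a check of the labels. Its log2 intensity was 12.26 ± 0.086 in knockout and 13.63 ± 0.067 in wild type (SD, n = 3 each), with a log2 fold change of -1.37 (limma adjusted p = 2.96e-09), without overlap of the groups. A clear signal remained in the knockout. The sources used here do not give the place of the probe relative to the deleted part, and a probe outside it would check nothing. Median raw intensities of the arrays lay between 223 and 251. Of the fibroblast markers, 9 of 11 were tested, with 3 higher and 4 lower in knockout, and their summed level was 27800 to 32300 on knockout arrays and 36460 to 37570 on wild-type arrays. Vim and Dcn, which fibroblasts usually express strongly, were dim in both groups by their named probes, with log2 intensities of 7.60 and 6.97 in knockout and 7.84 and 7.61 in wild type. All 3 neural markers tested (Stmn2, Nes and Mbp) were lower in knockout, with summed levels of 1764 to 1870 against 5581 to 6250 in wild type. These are bulk RNA samples, in which fewer cells of a type and less RNA per cell cannot be told apart. The part of such differences in the results below was not tested.

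The ubiquitin genes changed in both directions, mostly by small steps. In knockout, 27 of the 160 were higher and 25 were lower at a limma adjusted p under 0.05, and 108 did not pass. The 52 called genes make 32.5% of the 160, beside 43.6% of all 7605 named genes tested (21.8% higher and 21.8% lower) and 20.0% of all 27168 probes tested. Named genes are the nearer background, because the authors' processed table, which supplies the names, lists only probes whose highest value over the arrays was at least 1.20 times the lowest. The highest value of each listed probe was also at least 273.2 on the linear scale. A gene dim in 1 group could thus be listed through its brighter group alone. The groups did not overlap for 77 of the 160 genes (48.1%), beside 56.1% of named genes, and for each of the 52 called genes. At an unadjusted limma p under 0.05, 80 of the 160 were counted, beside 4424 of the 7605 named genes.

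Large changes were few among these genes. At least 2-fold changes were called for 2 of the 160 (1.25%), Rnf144a and Trim47, beside 6.07% of named genes. At least 1.5-fold changes were called for 8 of them (5%), beside 14.1% of named genes. The other 44 called genes changed by less than 1.5-fold, down to 1.14-fold. Called changes had a median size of 1.29-fold among the ubiquitin genes and of 1.36-fold among all named genes. The median log2 fold change of the 160 was 0.06, beside 0.01 for named genes, with 84 above 0 and 76 below. By signal, 129 of the 160 stood above the 70th percentile of all probes.

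**Figure D1:**
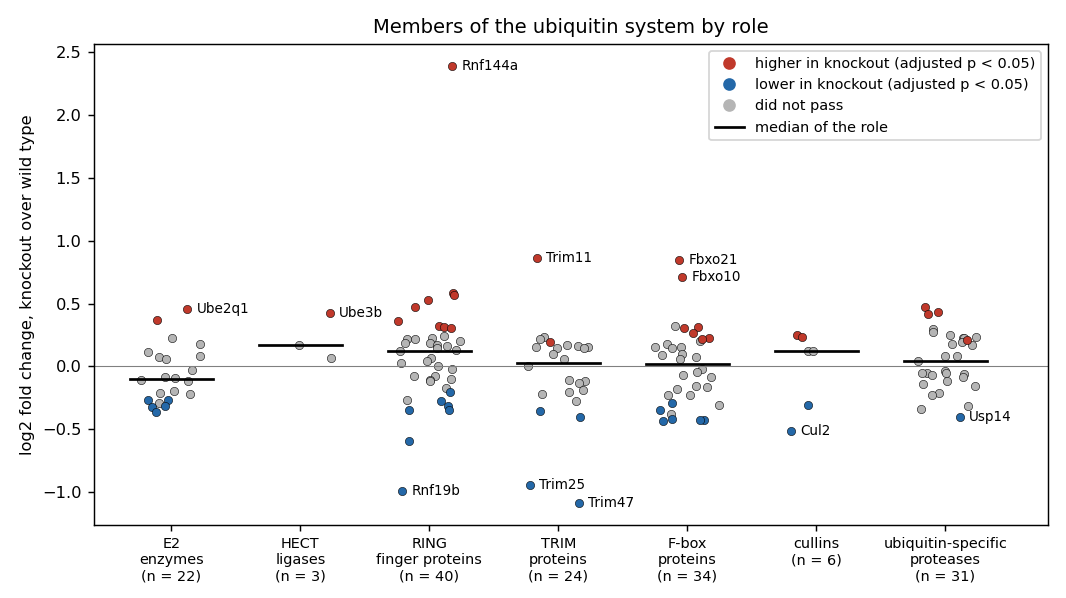
Each point is 1 of the 160 ubiquitin genes, placed by its role on the horizontal axis and by its log2 fold change, knockout over wild type, on the vertical axis. Red points were higher and blue points lower in knockout at an adjusted p under 0.05, grey points did not pass, and black bars are role medians, which lie between -0.10 and 0.17 while Rnf144a stands apart at 2.39.

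Promoter regions are shown for the gene that rose most and for the TRIM genes that fell most, to place their start sites in the genome. They are RefSeq sequences of assembly GRCm38.p6 that run from 250 bases before the gene's start to 50 bases after it, 5′ to 3′ on the gene's own strand. Rnf144a, the gene that rose most, starts within chr12:26415213-26415512 on the minus strand, and 67% of its bases are G or C. Trim47 and Trim25, the TRIM genes that fell most, both lie on chromosome 11. The Trim47 region is chr11:116110186-116110485 on the minus strand with 74.3% G or C, and the Trim25 region is chr11:88999153-88999452 on the plus strand with 62.7%. Capitals mark an E-box (CACGTG), found in the Trim25 region only of these 3, 48 bases before the start.
Rnf144a: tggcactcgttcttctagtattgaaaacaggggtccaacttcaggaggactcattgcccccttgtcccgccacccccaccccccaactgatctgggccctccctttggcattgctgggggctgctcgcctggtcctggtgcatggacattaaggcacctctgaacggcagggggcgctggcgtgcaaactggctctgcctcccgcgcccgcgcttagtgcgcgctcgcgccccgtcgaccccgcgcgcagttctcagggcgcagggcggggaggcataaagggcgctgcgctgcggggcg
Trim47: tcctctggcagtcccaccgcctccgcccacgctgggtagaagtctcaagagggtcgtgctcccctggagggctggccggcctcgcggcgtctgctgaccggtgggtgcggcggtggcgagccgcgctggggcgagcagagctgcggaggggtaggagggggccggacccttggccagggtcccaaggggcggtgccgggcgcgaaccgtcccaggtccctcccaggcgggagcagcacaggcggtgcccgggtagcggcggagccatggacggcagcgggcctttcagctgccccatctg
Trim25: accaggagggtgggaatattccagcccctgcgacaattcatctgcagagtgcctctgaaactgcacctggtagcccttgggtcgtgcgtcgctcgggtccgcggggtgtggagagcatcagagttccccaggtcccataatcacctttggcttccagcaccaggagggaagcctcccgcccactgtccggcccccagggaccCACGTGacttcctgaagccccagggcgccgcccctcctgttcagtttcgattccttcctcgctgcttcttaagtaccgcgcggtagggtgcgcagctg

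Promoters were found for 121 of the 160 genes, and 3 motifs were searched on both strands. The 121 hold 23 of the 27 higher genes, 11 of the 25 lower ones and 87 of the 108 that did not pass. The E-box, CACGTG, occurred in 13 of the 121 genes (10.7%), beside 8.09% of 27025 genes with a promoter. Among these were 3 of 23 genes that were higher in knockout (Ube2q1, Fbxo10 and Cul1) and 3 of 11 that were lower (Ube2cbp, Rnf145 and Trim25). The E-box also occurred in 7 of the 87 that did not pass (8.05%). The interferon response motif, GAAA followed after any 2 bases by GAAA, occurred in 10 of the 121 (8.26%), beside 3.99% of all. It occurred in 2 of the 23 higher genes (Rnf146 and Cul1), 0 of the 11 lower ones and 8 of the 87 that did not pass. The cAMP response motif TGACGTCA occurred in 1 of the 121 (0.826%), beside 2.03%. These matches describe letters in a window of fixed length, and no binding was measured.

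Of 22 genes with a Ube2 name, 2 were higher, 5 were lower and 15 did not pass in knockout (31.8% called, beside 43.6% of named genes), with a median log2 fold change of -0.10. Ube2q1, a conjugating enzyme with a long extension in front of its catalytic domain, gave log2 intensities of 13.18, 13.09 and 13.16 on knockout arrays and 12.72, 12.64 and 12.70 on wild-type arrays. The groups were well apart, with a log2 fold change of 0.46 ± 0.0598 (standard error; limma adjusted p = 6.92e-05), while the gene's other probe gave 0.17 (adjusted p = 0.163). Ube2s, which lengthens ubiquitin chains on substrates of the anaphase-promoting complex, read 7.87, 7.82 and 7.86 in knockout and 7.25, 7.52 and 7.67 in wild type. Its knockout arrays were tightly grouped and its wild-type arrays were spread, and the log2 fold change was 0.37 ± 0.117 (adjusted p = 0.0409). That call ended under 6 of the 16 other processing settings, among them the removal of any single array other than wild type C.

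Among the E2 genes that fell, Ube2e2 read 12.33, 12.27 and 12.29 in knockout and 12.57, 12.59 and 12.70 in wild type (log2 fold change -0.32 ± 0.0638, limma adjusted p = 0.00216). Ube2a, a homologue of yeast Rad6 that acts in histone ubiquitination and in replication past DNA damage, read 11.30, 11.31 and 11.39 in knockout and 11.70, 11.70 and 11.56 in wild type (-0.32 ± 0.0724, adjusted p = 0.00607). The groups of both genes did not overlap. Both calls ended when each array's values were centred on the other named genes of the same chromosome, an alternative added after the data had been seen: Ube2e2 was then at -0.18 (adjusted p = 0.0853) and Ube2a at -0.20 (adjusted p = 0.0602). Ube2cbp, a partner of Ube2c that carries a Ube2 name without being a conjugating enzyme, read 8.60, 8.66 and 8.73 in knockout and 9.02, 8.96 and 9.09 in wild type (-0.36 ± 0.0901, adjusted p = 0.0104). The remaining calls were Ube2d2a, a conjugating enzyme that serves many ligases (-0.26, adjusted p = 0.00453), and Ube2o, a large enzyme with both conjugating and ligase activity (-0.27, adjusted p = 0.00937). After the same centring Ube2d2a was at 0.11 (adjusted p = 0.23), no longer called. Ube2k and Ube2g1, the brightest E2 genes that did not pass, had overlapping groups. Ube2k read 13.49, 13.22 and 13.38 in knockout and 13.27, 13.34 and 13.26 in wild type (0.07, adjusted p = 0.562), and Ube2g1 read 12.25, 11.93 and 12.27 in knockout and 12.29, 12.30 and 12.13 in wild type (-0.08, adjusted p = 0.619).

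Of the 3 HECT ligases with a Ube3 name, 1 was higher in knockout and 2 did not pass (33.3% called, beside 43.6% of named genes). Ube3b, a ligase associated with mitochondria and mutated in a human developmental syndrome, read 12.73, 12.75 and 12.86 in knockout and 12.34, 12.26 and 12.46 in wild type. Its groups did not overlap and both of its probes rose (brightest probe 0.42 ± 0.0705, limma adjusted p = 0.000601). Ube3a, the ligase lost in Angelman syndrome, read 10.60, 10.53 and 10.69 in knockout and 10.63, 10.51 and 10.17 in wild type, with overlap (0.17, adjusted p = 0.338). Its other probe rose by 0.36 (adjusted p = 0.0321), so the probes of Ube3a disagree in their calls. Ube3c, which works at the proteasome, read 12.62, 12.76 and 12.63 in knockout and 12.69, 12.64 and 12.48 in wild type (0.07, adjusted p = 0.605).

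The RING finger proteins held the greatest rise of all the ubiquitin genes. Of 40 genes, 9 were higher, 7 were lower and 24 did not pass (40% called, beside 43.6% of named genes). Their median log2 fold change was 0.12. Rnf144a, a RING-between-RING ligase reported in human cells to act on the DNA repair kinase DNA-PKcs, read 9.33, 9.15 and 9.11 on knockout arrays and 6.75, 6.94 and 6.73 on wild-type arrays. Both groups were tight and far apart, a 5.25-fold rise (log2 fold change 2.39 ± 0.106, limma adjusted p = 1.2e-09). The rise rests on 1 named probe, which could have entered the authors' table through its knockout signal alone. Whether the dim wild-type signal exceeded background could not be tested, since the array files carry no detection values.

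Rnf113a1 and Rnf113a2, closely related genes whose human counterpart acts in the spliceosome and in repair of alkylated DNA, both rose. Rnf113a1 read 10.54, 10.61 and 10.60 in knockout and 10.02, 10.05 and 9.93 in wild type (0.58 ± 0.0776, adjusted p = 8.02e-05). Rnf113a2 read 11.17, 11.05 and 11.27 in knockout and 10.60, 10.56 and 10.64 in wild type (0.57 ± 0.0788, adjusted p = 0.000126). Copies this alike may share probe signal, so the pair may not be 2 separate observations. The other rises were Rnf2 (0.53), the Polycomb ligase that ubiquitinates a histone, Rnf130 (0.47), Rnf34 (0.36), Rnf146 (0.32), which recognises poly-ADP-ribosylated substrates, Rnf10 (0.31) and Rnf141 (0.31), with adjusted p-values from 0.000805 to 0.0464.

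Rnf19b, a RING-between-RING ligase known from natural killer cell killing, was the RING gene that fell most. It read 10.57, 10.60 and 10.49 in knockout and 11.58, 11.47 and 11.59 in wild type, 1.99-fold lower (-0.99 ± 0.0738, limma adjusted p = 2.58e-07). Its other probe fell as well (-0.74, adjusted p = 8.39e-05), and no knockout array came near the wild-type range. Its relative Rnf19a, which has been studied in protein aggregates of motor neurons, read 12.56, 12.58 and 12.70 in knockout and 12.95, 12.93 and 13.01 in wild type (-0.35 ± 0.0631, adjusted p = 0.00107), with -0.29 (adjusted p = 0.178) at its other probe, and centring per chromosome left -0.04 (adjusted p = 0.686). Rnf138, which acts in the resection of DNA double-strand breaks, read 9.15, 9.14 and 9.03 in knockout and 9.74, 9.72 and 9.65 in wild type (-0.60 ± 0.0847, adjusted p = 0.000151). All 3 of its probes fell, but centring left -0.22 (adjusted p = 0.0887). Rnf139 (-0.35) and Rnf145 (-0.27), ligases of the endoplasmic reticulum that act in sterol control, Rnf150 (-0.32) and Rnf14 (-0.21) were lower too, with adjusted p-values from 0.00655 to 0.0432. The calls of Rnf139 (-0.04 centred) and Rnf14 (0.17 centred) ended under centring.

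Rnf187 and Rnf11 were the brightest RING genes among those that did not pass. Rnf187, a coactivator of the transcription factor c-Jun, read 14.22, 14.30 and 14.14 in knockout and 14.12, 14.38 and 14.45 in wild type (-0.10, adjusted p = 0.451). Rnf11, part of a complex that restrains NF-kB signalling, read 13.34, 13.31 and 13.34 in knockout and 13.58, 13.55 and 13.39 in wild type, without overlap (-0.18, adjusted p = 0.0671). Its other probes were both lower, at -0.21 (adjusted p = 0.0426) and -0.48 (adjusted p = 0.019). Rnf41 likewise did not pass by its brightest probe, while another rose by 0.81 (adjusted p = 0.00116).

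TRIM genes held the greatest fall but few calls. Of 24, 2 were higher, 4 were lower and 18 did not pass (25% called, beside 43.6% of named genes). Their median log2 fold change was 0.03. Trim47 read 9.45, 9.67 and 9.48 in knockout and 10.59, 10.57 and 10.69 in wild type, 2.12-fold lower (-1.09 ± 0.0867, limma adjusted p = 5.29e-07). Trim25, an interferon-inducible ligase reported to act in RIG-I signalling and in conjugation of Isg15 to some proteins, read 9.74, 9.76 and 9.58 in knockout and 10.64, 10.62 and 10.64 in wild type. The wild-type arrays were nearly identical and lay far above every knockout array, a fall of 1.92-fold (-0.94 ± 0.081, adjusted p = 1.16e-06). Trim16, a TRIM protein without a RING domain that takes part in clearing damaged lysosomes, read 8.50, 8.22 and 8.27 in knockout and 8.70, 8.70 and 8.79 in wild type (-0.40 ± 0.101, adjusted p = 0.0115). Its call ended without knockout B and without knockout C. Trim36 was the other fall (-0.35, adjusted p = 0.0194), and its centred value was 0.03 (adjusted p = 0.891).

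Beside Trim25, the interferon-inducible marker list had 8 of 15 genes tested, with 7 lower in knockout (Gbp2, Oasl2, Isg15, Ifit3, Gbp3, Ifit2 and Irf1) and 1 higher (Psmb9). Its summed level was 8506 to 8603 on knockout arrays and 10030 to 10960 on wild-type arrays. Trim21 and Trim56, TRIM ligases of innate immunity, did not pass. The part of interferon signalling in the fall of Trim25 was not tested.

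Trim11, a ligase that helps to remove misfolded proteins, was the TRIM gene that rose most. It read 9.80, 9.97 and 9.87 in knockout and 9.18, 8.89 and 8.98 in wild type, a 1.82-fold rise (0.86 ± 0.0969, limma adjusted p = 1.66e-05). Trim28, the corepressor of KRAB zinc-finger proteins, read 13.87, 13.89 and 13.84 in knockout and 13.62, 13.63 and 13.76 in wild type (0.20 ± 0.0579, adjusted p = 0.0286). The Trim28 call ended under median scaling (adjusted p = 0.208), without the intensity trend (adjusted p = 0.139) and without any single array other than wild type C. Trim59 read 12.89, 12.78 and 12.88 in knockout and 12.83, 12.66 and 12.59 in wild type (0.16, adjusted p = 0.163), although its other probe rose by 0.43 (adjusted p = 0.000189). Trim27, a nuclear TRIM ligase, read 11.10, 11.14 and 11.09 in knockout and 11.16, 11.21 and 11.38 in wild type (-0.14, adjusted p = 0.275).

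**Figure D2:**
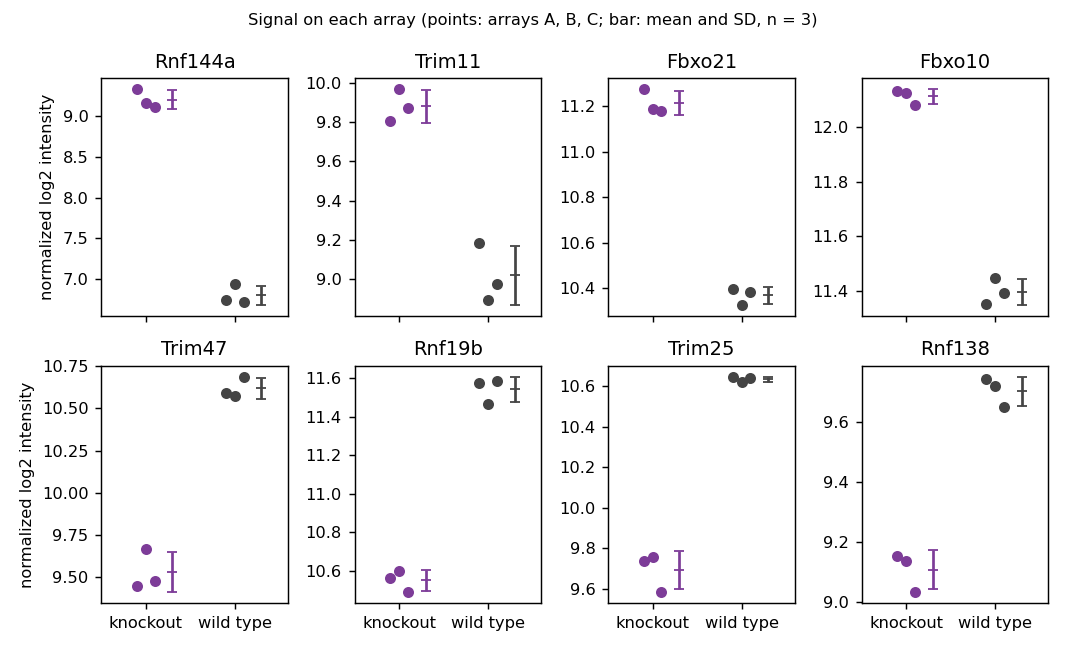
Normalized log2 intensity (vertical axis, a scale of its own in each panel) on the 3 knockout and 3 wild-type arrays for 4 ubiquitin genes that rose and 4 that fell, with points for single arrays and bars for the mean and SD. In all 8 panels the knockout and wild-type arrays do not overlap, and Rnf144a has the widest gap, with knockout arrays at 9.11 to 9.33 and wild-type arrays at 6.73 to 6.94.

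F-box proteins are the receptors that pick substrates for ligases built on Cul1. Of 34, 7 were higher, 6 were lower and 21 did not pass (38.2% called, beside 43.6% of named genes). Their median log2 fold change was 0.02. Fbxo21 read 11.28, 11.19 and 11.18 in knockout and 10.40, 10.33 and 10.38 in wild type, a 1.80-fold rise (0.85 ± 0.0733, limma adjusted p = 1.26e-06). Fbxo10, reported in human lymphoma cells to target an anti-apoptotic protein, read 12.13, 12.12 and 12.08 in knockout and 11.35, 11.45 and 11.39 in wild type, a 1.64-fold rise (0.71 ± 0.0661, adjusted p = 2.42e-06). Neither pair of groups came near overlap. Fbxo31, which targets a D-type cyclin after DNA damage, read 11.19, 11.22 and 11.02 in knockout and 10.84, 10.87 and 10.80 in wild type (0.31 ± 0.0779, adjusted p = 0.0112). Its call ended without knockout B and under centring (0.18, adjusted p = 0.112). Fbxl4 (0.31), a mitochondrial F-box protein that restrains mitophagy, Fbxw8 (0.27), a partner of Cul7, Fbxl14 (0.22) and Fbxw17 (0.21) also rose, with adjusted p-values from 0.0247 to 0.0441.

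The greatest F-box falls were alike in size. Fbxo2, which binds glycoproteins with high-mannose sugars, read 10.11, 10.20 and 10.12 in knockout and 10.54, 10.59 and 10.59 in wild type (-0.43 ± 0.0761, limma adjusted p = 0.000929). Fbxo34 read 11.38, 11.42 and 11.49 in knockout and 11.68, 11.83 and 12.07 in wild type (-0.43 ± 0.0914, adjusted p = 0.00376), with the wild-type arrays spread more widely. Fbxo38, known for targeting the receptor PD-1 in T cells, read 11.83, 11.84 and 12.04 in knockout and 12.33, 12.38 and 12.29 in wild type (-0.43 ± 0.0734, adjusted p = 0.00076), and centring left -0.05 (adjusted p = 0.681). Fbxo32, the muscle atrophy gene atrogin (-0.42), Fbxo33 (-0.34) and Fbxl6 (-0.30) were lower too, with adjusted p-values from 0.00916 to 0.032. Centring left Fbxo32 at -0.11 and Fbxl6 at 0.01, neither called. The brightest that did not pass were Fbxw5, with 12.32, 12.42 and 12.35 in knockout and 12.10, 12.20 and 12.35 in wild type (0.15, adjusted p = 0.21), and Fbxo4, with 11.62, 11.86 and 11.68 in knockout and 11.56, 11.63 and 11.75 in wild type (0.07, adjusted p = 0.624).

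Cullins were called in both directions, 2 higher and 2 lower of 6 (66.7% called, beside 43.6% of named genes). Cul1, the scaffold of F-box ligases, read 12.97, 12.94 and 13.04 in knockout and 12.74, 12.77 and 12.75 in wild type (0.23 ± 0.0594, limma adjusted p = 0.0122). Its call ended under median scaling (adjusted p = 0.0706), without the intensity trend (adjusted p = 0.0665) and without knockout C (adjusted p = 0.0643). Cul3, the scaffold for BTB-domain receptors such as Keap1, read 12.74, 12.49 and 12.69 in knockout and 12.38, 12.48 and 12.30 in wild type (0.25 ± 0.0776, adjusted p = 0.0368). Knockout B and wild type B nearly met, and the Cul3 call ended under 7 of the 16 other settings, including the replicate block (adjusted p = 0.0539).

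Cul2, the scaffold of the von Hippel-Lindau ligase that degrades hypoxia-inducible factors, read 10.95, 10.85 and 10.84 in knockout and 11.55, 11.42 and 11.21 in wild type. It fell 1.43-fold (-0.52 ± 0.0891, limma adjusted p = 0.000791), as did its other 2 probes (-0.33 and -0.40). Centring on the other genes of chromosome 18 left -0.14 (adjusted p = 0.267). Cul4b, an X-linked scaffold that works with Ddb1, read 12.40, 12.12 and 12.13 in knockout and 12.59, 12.57 and 12.41 in wild type (-0.30 ± 0.0837, adjusted p = 0.0191). Knockout A and wild type C nearly met, and the call ended without the intensity trend (adjusted p = 0.069) and without any 1 of 4 arrays (knockout B and C, wild type A and B). Cul4a, the close relative of Cul4b, read 12.31, 12.08 and 12.20 in knockout and 12.04, 12.10 and 12.09 in wild type (0.12, adjusted p = 0.292). Cul5, which carries SOCS-box receptors, read 12.19, 12.04 and 12.24 in knockout and 11.98, 12.15 and 11.96 in wild type (0.12, adjusted p = 0.337). Both had overlapping groups.

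The ubiquitin-specific proteases had the lowest share of calls of any role. Of 31, 4 were higher, 1 was lower and 26 did not pass (16.1% called, beside 43.6% of named genes). Their median log2 fold change was 0.04. Usp13 read 8.68, 8.65 and 8.79 in knockout and 8.15, 8.17 and 8.38 in wild type (0.47 ± 0.0999, limma adjusted p = 0.00362). Usp21 read 10.07, 10.09 and 10.26 in knockout and 9.67, 9.67 and 9.77 in wild type (0.43 ± 0.0855, adjusted p = 0.00215), with 0.30 (adjusted p = 0.0892) at its other probe. Usp22, the histone deubiquitinase of the SAGA complex, read 12.65, 12.52 and 12.52 in knockout and 12.07, 11.99 and 12.38 in wild type. Wild type C stood closer to the knockout arrays than to the other wild-type arrays, and both probes rose (0.41 ± 0.0916, adjusted p = 0.00491, and 0.43, adjusted p = 0.00102).

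Usp47, which acts on a DNA repair polymerase, passed by a small margin (0.21, limma adjusted p = 0.0401). Its call ended under 10 of the 16 other settings, and its other probes gave 0.17 and -0.01. Usp14, the deubiquitinase bound to the proteasome, was the 1 protease called lower, with 11.81, 11.52 and 11.87 in knockout and 12.19, 12.18 and 12.03 in wild type (-0.40 ± 0.091, adjusted p = 0.00585). Centring left -0.02 (adjusted p = 0.868). Usp39, a spliceosome protein without protease activity, read 12.71, 12.59 and 12.72 in knockout and 12.45, 12.70 and 12.63 in wild type (0.08, adjusted p = 0.535). Usp16, a histone deubiquitinase, read 11.96, 11.95 and 12.07 in knockout and 11.96, 12.01 and 11.78 in wild type (0.08, adjusted p = 0.547). Groups overlapped in both. Some proteases that did not pass by the brightest probe were called by another, namely Usp37 (0.80, adjusted p = 8.93e-05, against -0.04 at the brightest), Usp3 (-0.31, adjusted p = 0.0105) and Usp19 (-0.30, adjusted p = 0.0339). Usp6nl matches the name rule but is a GTPase-activating protein.

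Probes of the same gene gave a further view. Of the 56 ubiquitin genes with several tested probes, 8 had every probe called in one direction, namely Cul2, Fbxl6, Fbxo32, Fbxo38, Rnf138, Rnf19b, Ube3b and Usp22. Of these, Fbxl6 and Fbxo32 lie on chromosome 15 and Cul2, Fbxo38 and Rnf138 on chromosome 18. Their calls ended under centring per chromosome, while those of Rnf19b, Ube3b and Usp22 did not. The same count over all named genes is not given here. In 33 no probe was called, in 15 some were called and others were not, and in 0 were probes called in opposite directions. The other 104 genes rest on 1 probe each.

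Falls were most frequent on chromosomes 15 and 18, a pattern seen after the values were known, although most falls lay elsewhere. All 7 ubiquitin genes of chromosome 18 fell, namely Ube2d2a, Rnf14, Rnf138, Trim36, Fbxo38, Cul2 and Usp14, with a median log2 fold change of -0.40. On chromosome 15, 4 of 5 fell, namely Rnf139, Rnf19a, Fbxl6 and Fbxo32, while Fbxo4 did not pass, and the median was -0.35. These 2 chromosomes thus hold 12 of the 160 genes and 11 of the 25 falls, while the 148 genes elsewhere divided into 27 higher, 14 lower and the rest not passed. The largest falls lay elsewhere, with Trim47 and Trim25 on chromosome 11 and Rnf19b on chromosome 4.

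The other named genes of those chromosomes were shifted in the same direction. On chromosome 18, the other 209 named genes had a median log2 fold change of -0.35, with 63.6% called lower, 6.22% called higher and 88.0% below 0. On chromosome 15, the other 357 had a median of -0.29, with 57.7% called lower and 11.2% called higher. The shift was alike on every knockout array, with chromosome 18 medians of -0.33, -0.35 and -0.35 on knockout arrays and 0.01, 0.00 and 0.00 on wild-type arrays, all relative to the wild-type mean. The chromosome 15 medians were -0.32, -0.30 and -0.30 on knockout arrays and -0.01, -0.03 and 0.03 on wild-type arrays. Medians of the other chromosomes lay between -0.15 (chromosome 13) and 0.17 (chromosome 6).

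**Figure D3:**
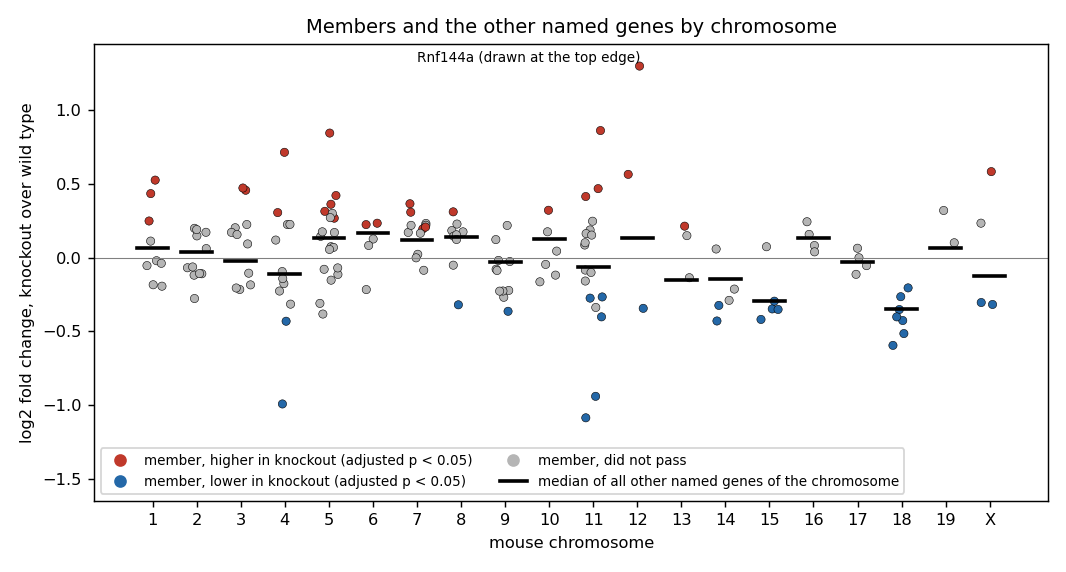
Points are the 160 ubiquitin genes by mouse chromosome (horizontal axis) and log2 fold change, knockout over wild type (vertical axis), coloured by call, and black bars are the medians of all other named genes of each chromosome. The bars of chromosomes 15 and 18 lie lowest, at -0.29 and -0.35, and 11 of the 12 ubiquitin genes there were lower in knockout; Rnf144a, at 2.39, is drawn at the top edge.

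Centring every named probe on the other named genes of its chromosome called 33 of the 160 genes, 19 higher and 14 lower, beside 37.4% of named genes. None of the 11 falls on chromosomes 15 and 18 remained called (0 of 11), while 11 of the 14 other falls and 16 of the 27 rises did. The 11 rises whose call ended were Ube2s, Rnf146, Rnf10, Rnf141, Trim28, Fbxo31, Fbxw8, Fbxl14, Cul1, Cul3 and Usp47. Rnf144a kept a log2 fold change of 2.29, Trim11 of 0.90, Fbxo10 of 0.82 and Fbxo21 of 0.73. Trim47 kept -1.05, Trim25 -0.90 and Rnf19b -0.89. The 4 cullin calls all ended, although Cul3 kept most of its size at 0.20 (adjusted p = 0.0696), beside 0.25 before. Cul4b was at -0.19 (adjusted p = 0.109), Cul2 at -0.14 and Cul1 at 0.07 (adjusted p = 0.456). Fbxo4, near 0 before centring, was higher by 0.38 than its chromosome 15 neighbours' shift (adjusted p = 0.00302), and newly called were also Ube2j1 and Trim23, higher, and Ube2h, Fbxl18 and Fbxl13, lower. A fit of the named probes without centring called 27 higher and 24 lower, so the difference came with the centring. The cause of the chromosome-wide shifts was not tested.

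Other genes of the pathway, outside the name rule, were read from 4 lists, each with a share called below the 43.6% of named genes. In the list of ubiquitin supply, activating enzymes and cullin regulators, 4 of 16 were higher, 1 was lower and 11 did not pass in knockout (31.2% called). Cops8, a subunit of the COP9 signalosome, which takes the activating protein Nedd8 off cullins, read 12.04, 11.91 and 11.96 in knockout and 9.08, 8.79 and 8.84 in wild type. This 8.37-fold rise (3.06 ± 0.0903, limma adjusted p = 2.08e-11), measured by 1 probe, was greater than that of any gene of the name rule. Uba7, the activating enzyme of Isg15, rose by 0.42 (adjusted p = 0.00998), and Cops4 (0.19) and Cand1 (0.18), which exchanges cullin receptors, rose slightly. Isg15, a ubiquitin-like protein induced by interferon, read 8.55, 8.51 and 8.46 in knockout and 9.19, 9.46 and 8.93 in wild type (-0.69 ± 0.12, adjusted p = 0.000825). The Isg15 activating enzyme was higher, while Isg15 and Trim25, reported as a ligase of Isg15 for some proteins, were lower.

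Among further ubiquitin ligases and receptors, 10 of 66 were higher, 11 were lower and 45 did not pass (31.8% called). Klhl13, a receptor of Cul3, read 7.59, 7.82 and 7.62 in knockout and 6.93, 6.37 and 7.05 in wild type (0.89 ± 0.157, limma adjusted p = 0.00091). Cblb, which ubiquitinates activated receptors, read 10.67, 10.63 and 10.59 in knockout and 9.88, 9.91 and 9.86 in wild type (0.75 ± 0.0759, adjusted p = 6.11e-06). Neither gene's groups overlapped, Klhl13 at a much dimmer signal. Dtx4 and Mib1, ligases of the Notch pathway, were the greatest falls. Dtx4 read 8.09, 7.99 and 7.98 in knockout and 8.82, 8.81 and 8.75 in wild type (-0.77 ± 0.0914, adjusted p = 2.79e-05), and Mib1, on chromosome 18, read 10.01, 9.94 and 10.00 in knockout and 10.59, 10.74 and 10.62 in wild type (-0.67 ± 0.0786, adjusted p = 2.7e-05). Centring per chromosome left Mib1 at -0.29 (adjusted p = 0.0184).

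Further deubiquitinating and SUMO proteases had 1 of 22 higher, 5 lower and 16 not passed (27.3% called). Stambp, an endosomal deubiquitinase, rose by 0.27 (limma adjusted p = 0.0398), a call that ended under median scaling (adjusted p = 0.0798) and without the intensity trend (adjusted p = 0.0866). Uchl1, a hydrolase abundant in neurons, read 8.42, 8.67 and 8.62 in knockout and 8.93, 9.02 and 9.23 in wild type (-0.49 ± 0.107, adjusted p = 0.00445), alongside the lower neural markers above, whose part in this fall was not tested. Josd1, on chromosome 15, fell by 0.40 on the log2 scale (adjusted p = 0.000693), and its value after centring was -0.09 (adjusted p = 0.375).

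In the proteasome list, 3 of 27 were higher, 7 were lower and 17 did not pass (37% called). Psmd8, a lid subunit, read 13.13, 13.20 and 13.03 in knockout and 12.33, 12.30 and 12.59 in wild type (0.71 ± 0.0811, limma adjusted p = 1.85e-05). Psmb9 and Psmb10 are catalytic subunits of the immunoproteasome and moved in opposite directions, by 0.48 (adjusted p = 0.0176) and -0.41 (adjusted p = 0.00122). Psmg2, an assembly chaperone encoded on chromosome 18, read 11.39, 11.58 and 11.55 in knockout and 12.10, 12.23 and 12.40 in wild type (-0.74 ± 0.0859, adjusted p = 2.36e-05). All 3 of its probes fell, and centring per chromosome left -0.36 (adjusted p = 0.00846). Over the 4 lists, 9 of 131 genes lie on chromosomes 15 and 18, and 6 of these were lower and 0 higher. Among all named genes outside the name rule, 57.7% on chromosome 15 and 63.6% on chromosome 18 were lower.

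**Figure D4:**
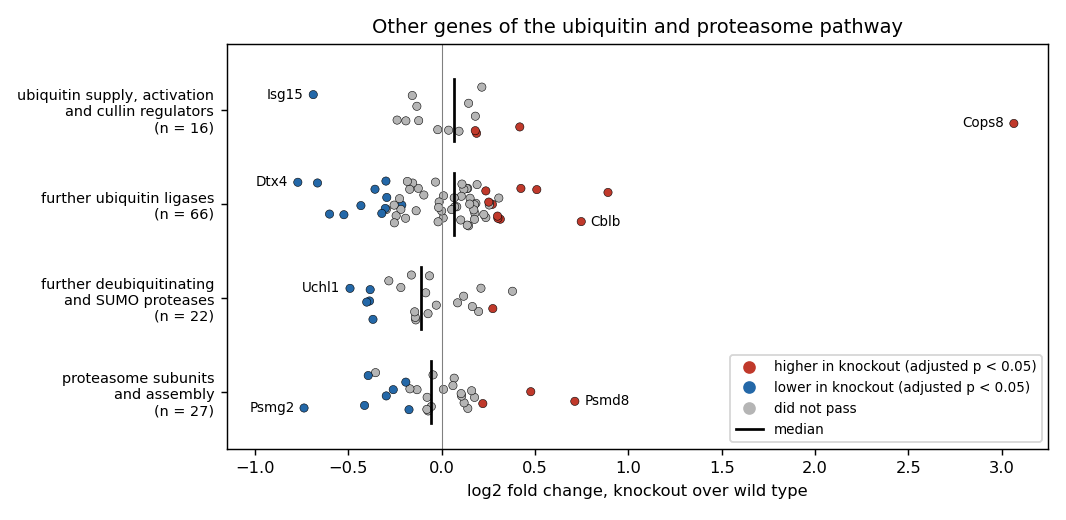
Points are genes of the pathway outside the name rule, in 4 lists down the page, placed by log2 fold change, knockout over wild type (horizontal axis), and coloured by call; black bars are list medians. Cops8, at 3.06, stands far from all others, and the medians lie between -0.11 and 0.07.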

How the data were processed

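Per the file headers, the authors deposited for each array 1 table of linear probe intensities, without detection values, and for the series 1 table of processed intensities of 12534 selected probes. Per the submitters' processing notes, the software was BeadStudio 3.0. Symbols came from the platform annotation of that table, updated through the RefSeq gene table of GRCm38.p6 by Entrez identifier (10643 of 10653 named probes matched).

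Intensities were background-corrected with normexp (offset 50), quantile-normalized and put on the log2 scale in limma 3.58.1 under R 4.3.3. The offset makes fold changes of dim probes smaller, and the number of arrays limits the precision. Probes with a mean above the 40th percentile (27168) were fitted with lmFit and eBayes with an intensity trend. P-values are two-sided and Benjamini-Hochberg adjusted over all probes fitted, with 0.05 as threshold. A gene was read by its brightest probe. Levels of different probes were compared only in choosing the brightest, in calling signals bright or dim, and in the summed marker levels. Those sums weigh the brightest probes most. The procedure was also run on simulated arrays in which known changes were put only into probes above the 70th percentile of signal. That simulation held no chromosome-wide shifts. It therefore does not show how changes of dim probes or such shifts are called.

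The members and the gene lists were chosen with earlier results of these data known. Named in full were, for each role, up to 3 rises and 3 falls of largest size and the 2 brightest genes that did not pass, and in each further list 2 rises and 2 falls; fits limited to named probes and centred per chromosome were added after the data had been seen. Deviations of same-lettered arrays correlated at 0.101, -0.0899 and 0.0753, within the range of differently lettered pairs (-0.209 to 0.150). Same-lettered arrays were thus no more alike by this measure. With 3 arrays per group it cannot decide whether a letter marks arrays handled together, and the replicate block is an alternative only.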

Additional observations from a re-analysis of the deposited data

How the results depend on the processing

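The total of 52 called ubiquitin genes lay between 40 and 57 under the settings that kept all 6 arrays, centring aside, with 49 (24 higher and 25 lower) when the letter was a replicate block. Leaving out 1 array gave 35 to 58 called, 16 to 28 higher (16 without knockout B and without knockout C) and 19 to 30 lower. Centring per chromosome gave 33 called and 14 lower. The called cullin regulators and suppliers numbered 5, with 3 without the intensity trend and 3 to 5 with 1 array left out (3 without knockout A and without wild type B). The called further ligases numbered 21, with 12 after centring and 13 to 28 with 1 array left out (13 without knockout C). The called proteasome genes numbered 10, with 6 without the trend and 5 to 10 with 1 array left out (5 without knockout A and without knockout B). Of the 52 calls, 29 held under each of the 16 settings that gave a value, centring and the named-probe fit aside, and 21 held under those 2 as well, and 47 kept their sign throughout. Of the 108 others, 30 were called under at least 1 setting. Median scaling called 2283 probes higher and 3119 lower, 42.3% higher against 49% in the fit reported. Apart from the lost arrays, which leave fewer samples, the cause of these changes was not tested. Without detection values, dim probes such as Ube2s and Klhl13 could not be set against background.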
